A study of Mus musculus with 12 samples.

Results

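Keratins are the intermediate filament proteins of epithelial cells, and 10 of their genes are described here in mouse embryonic fibroblasts (MEFs) at an early stage of reprogramming. The genes are Krt5, Krt6a, Krt7, Krt8, Krt13, Krt14, Krt15, Krt17, Krt18 and Krt19, taken by symbol from a table of 55573 genes that holds 53 protein-coding keratin genes in all. The set was chosen by the measured rise of Krt14 after induction without added B12 in these data, so that comparison is given below as a description with no test.

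All cells came from C57BL/6 embryos at day 13.5 that carry a cassette from which doxycycline induces Oct4, Sox2, Klf4 and Myc, the 4 factors of reprogramming (OSKM). Cells of 3 embryos, called clones 1 to 3 in the labels, were kept for 72 h in the medium used for induced pluripotent stem cells. Each clone gave 1 library in each of 4 groups, which were cells without doxycycline (MEF), the same with 2 µM vitamin B12 (MEF+B12), cells with 1 µg/ml doxycycline (OSKM), and cells with both (OSKM+B12), for 12 libraries. Uninduced cells carry the cassette too but received no doxycycline, so the drug and the factors cannot be told apart. A clone is 1 embryo, and the year in the library titles separates clone 1 from clones 2 and 3, so that year and clone cannot be told apart. The libraries held between 56971244 and 79236795 counted read pairs, and levels are given in CPM, counts scaled by the library total after TMM normalization to a common size. The 12 fibroblast markers examined, among them Col1a1 and Pdgfra, summed to between 111402 and 140353 CPM in uninduced libraries, to between 86636 and 102412 CPM in induced libraries of clones 1 and 2, and to 115538 and 103183 CPM in OSKM and OSKM+B12 of clone 3. The part of this difference in the keratin differences was not tested. Most of each sum came from Col1a1, Col1a2 and Col3a1. Over the list, 0 of 12 genes passed the edgeR test of induction with B12 described below. Fitted differences were above 0 for 7 of the 12, with a median of 0.015 (log2).

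Keratin filaments are built from pairs, each with a small acidic type I chain and a larger basic type II chain. Simple epithelia use Krt8 (type II) with Krt18 or Krt19 (type I), and Krt7 (type II) is found in glandular, ductal and mesothelial cells. The basal layer of stratified epithelia makes Krt5 (type II) with Krt14 or Krt15 (type I), Krt13 (type I) marks the layers above it in mucosal epithelia, and Krt6a (type II) with Krt16 and Krt17 (type I) appears in hair follicles and in wounded or stressed epidermis. Fibroblasts build their filaments mainly from vimentin. Conversion of fibroblasts to pluripotent cells includes a change from mesenchymal to epithelial character, and Krt8 and Krt18 are commonly read as signs of it.

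The type I genes, apart from Krt18, sit in a cluster on mouse chromosome 11, and the type II genes sit on chromosome 15 together with Krt18 (GRCm38, GENCODE annotation). Along chromosome 11, Krt13 (100117327 to 100121566), Krt15 (100131758 to 100135928) and Krt19 (100140810 to 100148665) are direct neighbours, followed by Krt14 (100203162 to 100207548), Krt16 and Krt17 (100256217 to 100261029), all on the minus strand. On chromosome 15, Krt7 lies on the plus strand (101411043 to 101430313), Krt6a (101689910 to 101694307) and Krt5 (101707070 to 101712898) lie on the minus strand, and the cluster ends with Krt8 (101996698 to 102004482, minus strand) and Krt18 (102028180 to 102032027, plus strand), which are 23.7 kb apart and point away from each other.

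The promoters of 3 genes are shown because their genes cover the range of responses described below. Krt13 had the largest fitted difference, and Krt8 and Krt18 encode the 2 chains of 1 filament and are neighbours, although their levels after induction differed. The sequences are from RefSeq (GRCm38.p6), written 5′ to 3′ on the strand of the gene, and stop before the first annotated base of the gene in either annotation. The first sequence is chr11:100121567-100121816 (minus strand), the second is chr15:102004483-102004592 (minus strand) and the third is chr15:102027966-102028179 (plus strand). Capitals mark matches to the motifs named after them.
Krt13: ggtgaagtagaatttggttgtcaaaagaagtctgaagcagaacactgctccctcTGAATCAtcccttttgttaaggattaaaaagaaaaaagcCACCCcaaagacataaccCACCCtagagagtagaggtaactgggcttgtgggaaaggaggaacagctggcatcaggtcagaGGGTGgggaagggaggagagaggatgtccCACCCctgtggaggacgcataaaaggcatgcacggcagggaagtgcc
Krt8: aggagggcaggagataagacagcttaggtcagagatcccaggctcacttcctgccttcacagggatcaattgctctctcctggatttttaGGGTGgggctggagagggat
Krt18: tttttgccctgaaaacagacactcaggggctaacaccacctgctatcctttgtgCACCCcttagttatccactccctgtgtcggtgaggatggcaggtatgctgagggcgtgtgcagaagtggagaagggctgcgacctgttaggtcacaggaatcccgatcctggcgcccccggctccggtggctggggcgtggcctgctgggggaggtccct

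A set of 6 motifs were searched on both strands in the 250 bases before each RefSeq start. The Klf core CACCC was present in all 3 windows, 4 times for Krt13, 2 times for Krt8 (1 of them in the stretch not printed) and 1 time for Krt18, and 52.0% of all 32851 promoter windows hold it. The AP-1 element TGANTCA was found 1 time, for Krt13, starting 196 bases before the start, and 6.75% of all windows hold it. The octamer ATGCAAAT (1.6% of windows), the Sox core CATTGT (10.7%), the E-box CACGTG (6.02%) and the TATA box TATAAA (12.4%) had no match in the 3 windows. Promoter entries for Krt6a, Krt15, Krt17 and Krt19 were missing, and those for Krt7 and Krt14 started 1360 and 1518 bases from the annotated gene start and were not used.

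In uninduced cells 1 keratin stood above the rest. Per kilobase of annotated exon, the scale on which genes can be compared, Krt19 had a median level of 3.36 CPM per kb over the 6 uninduced libraries (range 1.99 to 3.90), apart from the next gene, Krt14, at 0.266 (0.159 to 0.403). Krt14, Krt18 at 0.226, Krt7 at 0.204 and Krt8 at 0.143 CPM per kb followed, each with a range that overlapped that of its neighbour in the order, and the annotated length of Krt7 (7049 bases) sums several transcripts and so lowers its value. With the length of the longest protein-coding transcript instead (4094 bases for Krt7), a choice made after the values were seen, Krt7 came second at 0.351 CPM per kb, still with a range that overlapped that of Krt14. Krt15, Krt17, Krt13, Krt5 and Krt6a were near the limit of detection. A count of 3, which is the upper limit that a count of 0 allows, corresponds to between 0.0385 and 0.0520 CPM in these libraries, and such limits cover counting error only.

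The same order did not hold in induced cells. In the 4 induced libraries of clones 1 and 2, Krt19 (median 7.72 CPM per kb), Krt14 (3.54), Krt8 (1.55) and Krt13 (0.669) took the first 4 places with ranges that did not touch, and Krt18 (0.304) and Krt7 (0.254) came after them. Krt20, which is outside the 10 and so has no place here, was at 2.64 to 3.67 CPM per kb in these libraries. These 4 places were the same with the longest protein-coding transcript as the length, and Krt7 (0.438) then came before Krt18. In the 2 induced libraries of clone 3 the order was again Krt19 (4.05), Krt14 (0.254), Krt18 (0.186), Krt7 (0.152) and Krt8 (0.117), with Krt13 at 0.0288 CPM per kb. Summed over the 10 genes, the level per kb was 0.791% to 1.15% of that of Vim in uninduced libraries, 3.13% to 4.26% in induced libraries of clones 1 and 2, and 1.26% and 1.06% in OSKM and OSKM+B12 of clone 3.

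**Figure D1:**
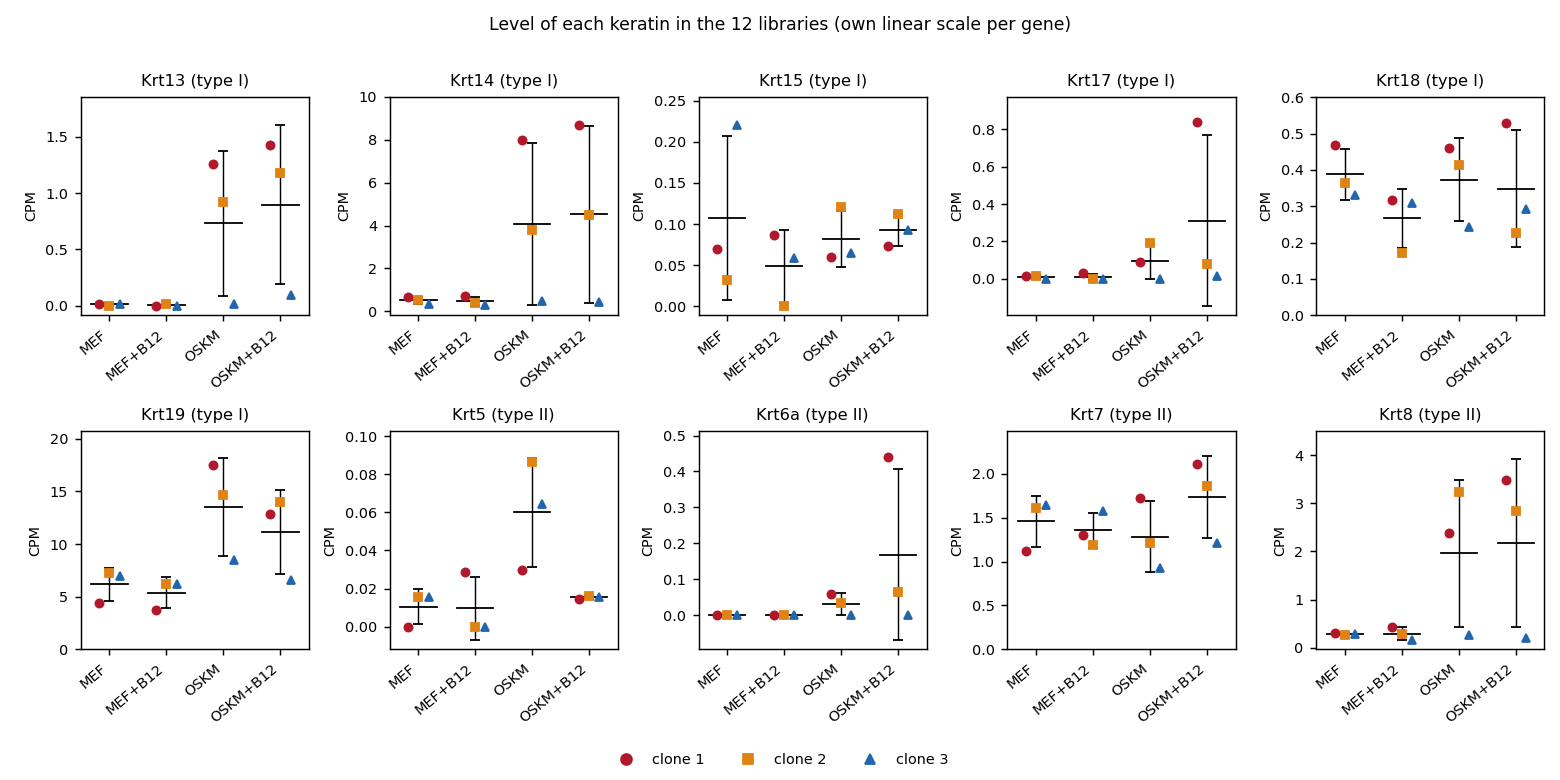
Level of each of the 10 keratins in CPM (vertical axis, own linear scale per panel) in the 4 groups, with 1 point per library, the symbol giving the clone, and the bar and whiskers giving the mean and SD of 3 libraries. Krt13, Krt14 and Krt8 are high in both clones 1 and 2 after induction and low in clone 3 (Krt14 in OSKM+B12 was 8.68, 4.49 and 0.430 CPM), while Krt18 and Krt7 overlap between groups.

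After 72 h of induction, Krt13 and Krt14 of stratified epithelia and Krt8 and Krt19 of simple epithelia were higher in clones 1 and 2 than in the uninduced libraries of these clones, and Krt18 and Krt7 did not follow them. With B12, the induced minus uninduced difference in clones 1 and 2 was 5.56 and 4.65 for Krt13, 3.56 and 3.40 for Krt14, 2.92 and 3.22 for Krt8 and 1.79 and 1.16 for Krt19 (log2 CPM). In clone 3 these genes differed by 2.00, 0.57, 0.26 and 0.08. Over the 3 clones together, the test with B12 called Krt13 alone among the 6 keratins that could be tested, and Krt13 passed the filter on low counts only through its induced libraries.

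Krt14, the type I keratin of basal epidermis, was measured at 0.658, 0.538 and 0.331 CPM in MEF (clones 1, 2 and 3) and at 7.97, 3.77 and 0.462 CPM in OSKM. With B12 it was at 0.708, 0.396 and 0.279 CPM in MEF+B12 and at 8.68, 4.49 and 0.430 CPM in OSKM+B12. Clones 1 and 2 had high values after induction in both arms, whereas clone 3 stayed within the range of uninduced cells, so the groups overlap. Within clones, OSKM minus MEF was 3.54, 2.74 and 0.44 on the log2 scale, and the fitted difference was 2.69 ± 0.51 (log2, SE of the fit, 3 clones). Each SE in this text is the absolute fitted difference divided by the square root of the F statistic of the fit over 12 libraries. It is not a standard error over the 3 clones, and the values per clone show the spread between embryos. The contrast of OSKM with MEF is the one behind the choice of Krt14.

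The comparison with B12, OSKM+B12 against MEF+B12, compares the other 6 libraries, but the cells come from the same 3 embryos and the fit shares its clone terms, dispersions and filter over all 12 libraries. It was tested for all 19174 genes that passed a filter on low counts, by edgeR's quasi-likelihood test with the clone as a block and Benjamini-Hochberg adjustment. Of the 10 keratins, 6 passed the filter (Krt7, Krt8, Krt13, Krt14, Krt18 and Krt19). Krt13 rose, and it was 1 of 6 tested, where 0.104% of all genes tested rose (20 genes) and none fell. Krt13 passed the filter only through its induced libraries, so it had to differ. At an unadjusted p under 0.05, 4 of the 6 were called (Krt8, Krt13, Krt14 and Krt19), where 2854 of all 19174 genes were. These 2854 genes, in either direction, are the background for the same counts in the lists below.

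Krt13, the type I keratin of mucosal epithelia, was counted 1, 0 and 1 times in MEF and 0, 1 and 0 times in MEF+B12. It was counted 85, 53 and 1 times in OSKM and 97, 73 and 6 times in OSKM+B12, which is 1.43, 1.17 and 0.0922 CPM in the last group. The OSKM+B12 libraries all lay above those of MEF+B12, by at least 32.9-fold in clone 1 and at least 2.09-fold in clone 3 (counts of 0 set to 3 per library), and by 68.2-fold in clone 2, where the 1 control count gives an exact 95% counting interval of 11.9 to 2729. The adjusted p was 0.00636 in edgeR, and 0.555 and 0.797 when clone 1 or clone 2 was left out. With the clone not used as a block it was 0.966.

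The fitted difference of Krt14 with B12 was 3.03 ± 0.51 (log2, SE), with an adjusted p of 0.0716 in edgeR, so it did not pass, although the value was above 0 in 3 of 3 clones (3.56, 3.40 and 0.57). DESeq2 gave an adjusted p of 0.0192, and there 2 of 6 keratins and 0.991% of all genes rose. When clone 3 was left out edgeR gave 3.56 and an adjusted p of 0.00013, and when clone 1 or clone 2 was left out 0.69 and 0.834. In a fit of only the 6 libraries with B12, added after the values were seen, Krt14 differed by 3.08 with an adjusted p of 0.203, and 0 of the 5 keratins then tested passed, while 3 had an unadjusted p under 0.05.

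Krt8, the type II keratin of simple epithelia, was at 0.312, 0.269 and 0.284 CPM in MEF and at 2.39, 3.23 and 0.257 CPM in OSKM. With B12 it was at 0.434, 0.276 and 0.162 CPM uninduced and at 3.48, 2.83 and 0.200 CPM induced. The pattern over the clones was that of Krt14, with clone 3 again inside the uninduced range. The fitted difference with B12 was 2.68 ± 0.59 (log2, SE) and the adjusted p 0.172 in edgeR. Of the exon sequence of Krt8, 32.3% of 31-base words occur in other annotated genes, nearly all of them in the pseudogene Krt8-ps. Krt8-ps itself was counted 0 to 5 times in uninduced libraries, 35 and 31 times in OSKM of clones 1 and 2, 34 and 38 times in OSKM+B12 of these clones, and at most 3 times in induced clone 3. Reads that lie within the shared sequence cannot be assigned to 1 of the genes, and the rest of Krt8 is its own.

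Krt18, the type I partner of Krt8, did not follow it. Krt18 ranged from 0.172 to 0.468 CPM in the 6 uninduced libraries and from 0.225 to 0.529 CPM in the 6 induced ones. The fitted difference with B12 was 0.35 ± 0.32 (log2, SE) with an adjusted p of 0.672 in edgeR, and the group ranges overlap. Krt7, a type II chain, ranged from 1.13 to 1.64 CPM uninduced and from 0.923 to 2.12 CPM induced, with a fitted difference of 0.33 ± 0.26 and an adjusted p of 0.611. Its induced minus uninduced value with B12 was 0.69 and 0.64 in clones 1 and 2 and -0.37 in clone 3.

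Krt19, a type I keratin of simple and ductal epithelia and of mesothelium, was already present before induction. It was at 4.40, 7.24 and 6.96 CPM in MEF and 17.5, 14.6 and 8.47 CPM in OSKM. With B12 it was at 3.70, 6.25 and 6.21 CPM uninduced and at 12.9, 14.0 and 6.56 CPM induced. All 3 induced libraries lay above all 3 uninduced ones in both arms, which among the 6 tested keratins held for Krt19 and Krt13 with B12 and for Krt19 alone without it. Of all genes tested, 5.47% did so with B12 and 4.77% without. The fitted difference of Krt19 with B12 was 1.01 ± 0.31 (log2, SE), with an adjusted p of 0.188 in edgeR. Krt19 made up 64.2% to 83.5% of the summed level per kb of the 10 keratins in uninduced libraries and 43.8% to 61.2% in induced libraries of clones 1 and 2.

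The other 4 keratins were too low to be tested. Krt17, a type I keratin of hair follicles and stressed epidermis, was counted at most 2 times in each uninduced library, 6, 11 and 0 times in OSKM, and 57, 5 and 1 times in OSKM+B12. Most of its counts thus came from 1 library, OSKM+B12 of clone 1, where it was 29.0-fold above MEF+B12 of the same clone (exact 95% counting interval 7.67 to 245). Krt6a, the type II chain made in the same places, had 0 counts in all 6 uninduced libraries, 4, 2 and 0 in OSKM, and with B12 30, 4 and 0 after induction, again highest in clone 1 with B12, at least 10.2-fold above its control. Much of the sequence of Krt6a (51.3% of 31-base words) is shared, mostly with Krt6b, so its counts are uncertain, and Krt6b itself had 7 counts in that library and at most 1 in any other.

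Krt5, the usual type II partner of Krt14, had 0 to 2 counts in uninduced libraries and 1 to 5 in induced ones, with no library above 0.0864 CPM. Krt14 was thus high in libraries in which its usual partner was barely detected. Krt15, another type I chain of basal epithelium, had 0 to 14 counts uninduced and 4 to 7 induced. For Krt14 and Krt17, 28.2% and 15.8% of the words are shared with other genes, largely other type I keratins, for Krt5 and Krt18 12.8% and 11.4%, and for Krt13 and Krt19 less than 0.5%.

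The balance of the chain types was uneven in all libraries. Summed per kb, the 6 type I genes exceeded the 4 type II genes 5.87-fold to 17.3-fold, and 5.53-fold to 15.2-fold with the longest protein-coding transcript as the length. In induced libraries of clones 1 and 2 the type I sum was 11.0 to 15.1 CPM per kb and the type II sum 1.50 to 2.27. In uninduced libraries these sums were 2.69 to 4.49 and 0.306 to 0.419.

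**Figure D2:**
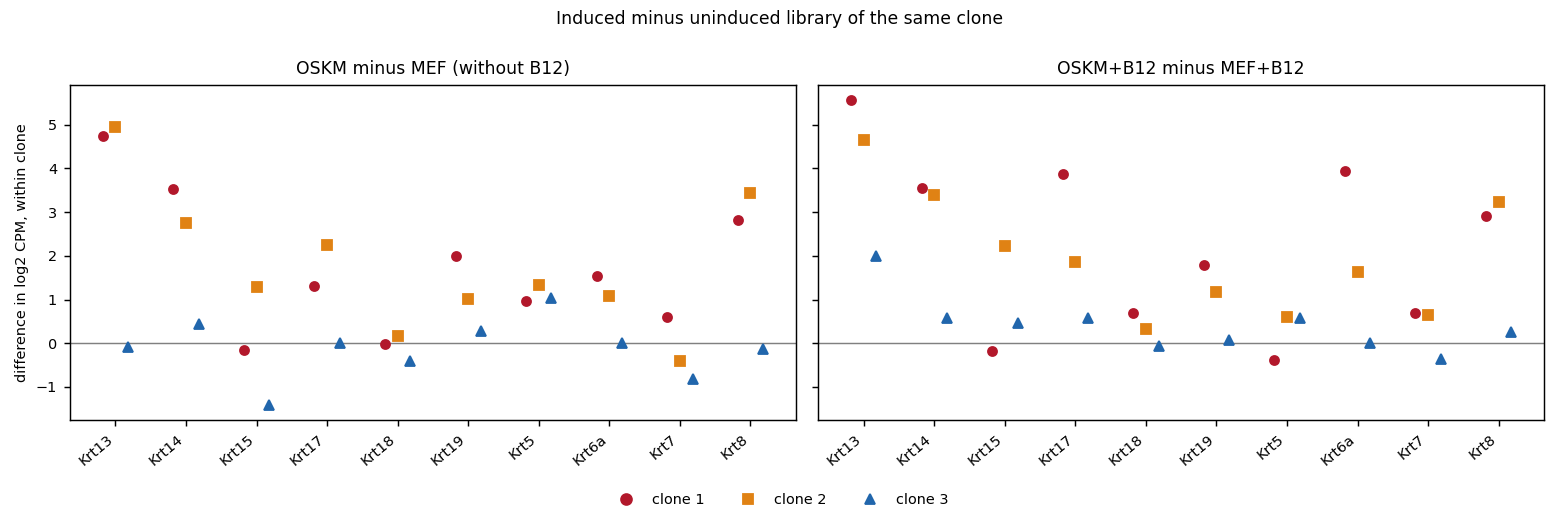
Difference in log2 CPM between the induced and the uninduced library of the same clone (vertical axis) for the 10 keratins, without B12 (left) and with B12 (right), 1 point per clone. Krt8, Krt13, Krt14 and Krt19 lie above 1 for clones 1 and 2 in both panels, and of these only Krt13 with B12 lies above 1 for clone 3.

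The 3 embryos differed. Without B12, 4 of the 6 tested keratins were more than 1 log2 unit higher in the induced library of clone 1 and of clone 2, where 3.43% and 4.02% of all genes tested were, and 0 of 6 in clone 3, where 0.887% were. With B12 it was again 4 of 6 in clones 1 and 2 (2.9% and 3.07% of all genes) and 1 of 6, Krt13 with 6 counts, in clone 3 (1.24% of all genes). The counts without B12 are a description, since OSKM against MEF is the comparison behind the choice of the set. In both arms the 4 genes were Krt8, Krt13, Krt14 and Krt19. Krt13 passed the filter only through its induced libraries, so it had to differ. The difference between clones in the response was tested in edgeR with a clone by state term over both B12 arms. No clone was repeated within a group, so the B12 arms of a clone served as its replicates. The p-values of this test thus measure spread within embryos. This test includes the libraries behind the choice of Krt14, and the difference of Krt14 between clones was already known.

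Of the other 5 tested, Krt19 (adjusted p 0.00197) and Krt8 (0.0337) passed, where 2.15% of all genes tested passed. The value of Krt14 (0.00446) is given as a description. Krt7 (0.104), Krt18 (0.768) and Krt13 (0.638, with few counts) did not. Without clone 3 no keratin passed (adjusted p from 0.731 for Krt19 to 0.879 for Krt8 among these 3, and 1 of the 7 then tested had an unadjusted p under 0.05). In the comparison with B12, leaving out clone 3 raised the number of keratins that rose from 1 to 4 (Krt8, Krt13, Krt14 and Krt19), where 2.46% of all genes then tested rose. Clone 3 had the smallest differences of these 4 genes, so leaving it out favours their calls. Krt13 also had to differ, because of the filter, and Krt14 is the gene by which the set was chosen. The 4 calls are thus a description.

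Transcripts of 3 of the 4 factors were also higher in induced clones 1 and 2 than in induced clone 3. Pou5f1, which encodes Oct4, was at 18.5 to 20.7 CPM in induced libraries of clones 1 and 2 and at 2.86 and 2.34 CPM in OSKM and OSKM+B12 of clone 3, against at most 0.468 CPM uninduced. Sox2 was at 13.3 to 17.8 CPM in induced libraries of clones 1 and 2 and at 2.33 and 2.18 CPM in clone 3. Myc was at 43.6 to 53.4 CPM in induced libraries of clones 1 and 2, at 20.0 and 21.9 CPM in clone 3 and at 16.4 to 23.3 CPM uninduced. Klf4 did not share this pattern, with 118 to 143 CPM uninduced and 108 to 123 CPM induced. Reads from the cassette and from the endogenous genes were not separated in these counts, and the part of the factor level in the keratin differences was not tested.

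Other cell types of an embryo express keratins, and in bulk RNA more cells of a type and more RNA per cell cannot be told apart. The 10 mesothelial markers, of a tissue that makes Krt7, Krt8, Krt18 and Krt19, summed to 39.7 to 52.9 CPM in uninduced libraries, to 67.7 to 90.0 CPM in induced libraries of clones 1 and 2, and to 46.3 and 49.9 CPM in OSKM and OSKM+B12 of clone 3. None of the 10 passed the test of induction with B12 in edgeR, 4 of 10 had an unadjusted p under 0.05, and 5 of 10 passed the test of a difference between clones (Msln, Upk3b, Upk1b, Lrrn4 and Muc16). Msln was at 4.23 to 8.79 CPM uninduced and reached 26.3 CPM. All 10 were above 3 counts in some library of each group. The endothelial list moved likewise, from 45.1 to 50.5 CPM uninduced to 129.6 to 149.1 CPM in induced clones 1 and 2, and nearly all of that sum was Tek, while Emcn and Cldn5 had at most 3 counts in each library. Of this list, 6 genes were tested for induction with B12 in edgeR, 0 passed, and 4 had an unadjusted p under 0.05 (Tek, Esam, Cdh5 and Erg). Tek and Cdh5 passed the test of a difference between clones (adjusted p 0.00027 and 0.0107 in edgeR).

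The 12 markers of surface epithelium did not sum to more after induction, with 55.0 to 103 CPM in uninduced libraries and 51.0 to 83.9 CPM in induced ones, but most of that sum was Cdh3. Of the list, 7 genes were tested for induction with B12 in edgeR and 0 passed, while 6 of 7 had a fitted difference above 0, the median was 0.92 (log2), and 5 had an unadjusted p under 0.05 (Cdh1, Dsp, Perp and Trp63 with higher and Cdh3 with lower values). Cdh3 and Perp passed the test of a difference between clones. Of its defining genes, Cldn4, Esrp1 and Grhl2 had at most 2 counts in each library and Epcam at most 9. Cdh1, which encodes E-cadherin, had 2 to 13 counts in uninduced libraries, 35 to 40 in induced clones 1 and 2, and 17 and 6 in OSKM and OSKM+B12 of clone 3, at most 0.611 CPM. Its fitted difference with B12 was 2.16 ± 0.49 (log2, SE, adjusted p 0.176 in edgeR), with 1.50, 3.30 and 0.71 in clones 1, 2 and 3. The part of mesothelial, endothelial or surface epithelial cells in the keratin differences was not tested.

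**Figure D3:**
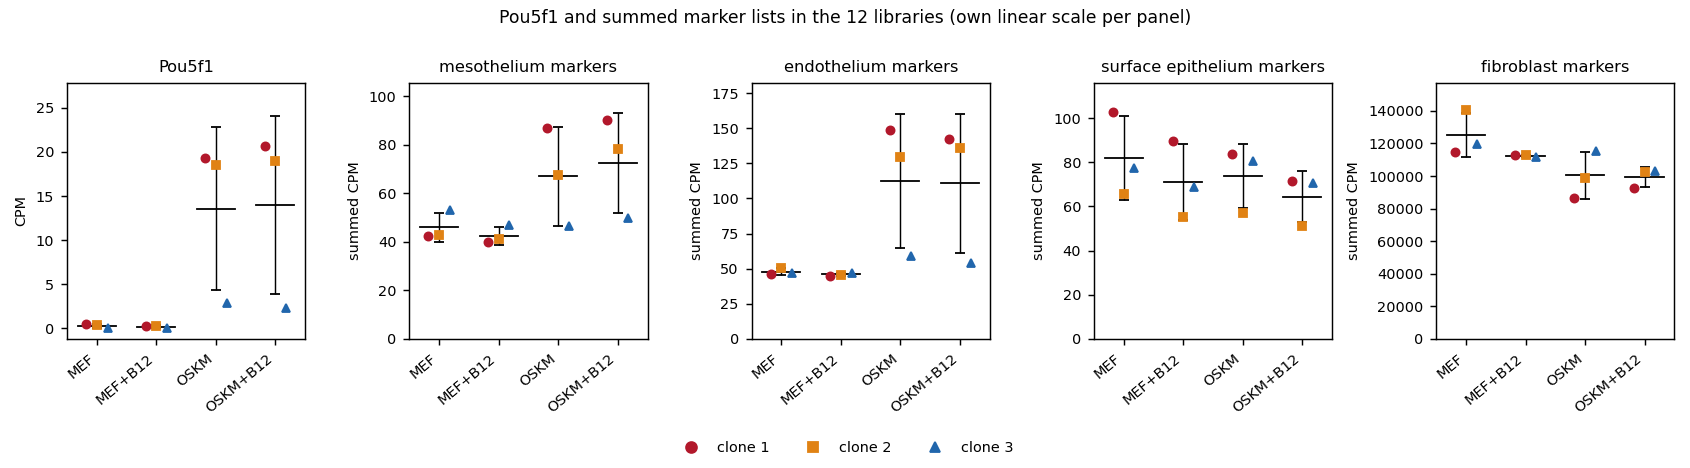
Pou5f1 in CPM and the summed CPM of 4 lists of cell type markers (vertical axes, own linear scale per panel) in the 4 groups, with 1 point per library, the symbol giving the clone, and the bar and whiskers giving the mean and SD of 3 libraries. Pou5f1 and the mesothelial and endothelial sums are higher after induction in clones 1 and 2 than in clone 3 (mesothelial sum 67.7 to 90.0 CPM against 46.3 and 49.9), and the surface epithelium sum is not.

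No keratin passed a test of vitamin B12 in the fits that were run. These fits have no clone by state term, so the difference between clones in the induction response is part of their residual. That can widen the SE of a B12 difference, most of all for Krt19, Krt14 and Krt8. A B12 test with that term was not run. In edgeR, 0 of the 6 tested passed in induced cells (OSKM+B12 against OSKM), where 1.06% of all genes passed, 0 of 6 in uninduced cells, where 1.38% passed, and 0 of 6 for the average over both states, where 3.84% passed. At an unadjusted p under 0.05 the count was also 0 in each of the 3 comparisons, where 1883, 1972 and 2964 of all 19174 genes were called. The calls of DESeq2 were also 0. The average B12 difference was -0.02 ± 0.36 (log2, SE, over 6 pairs of libraries) for Krt14, 0.02 ± 0.44 for Krt8, -0.24 ± 0.73 for Krt13, -0.25 ± 0.22 for Krt19, -0.31 ± 0.22 for Krt18 and 0.16 ± 0.19 for Krt7. Krt19 was lower with B12 in 6 of 6 pairs, by 0.06 to 0.44 on the log2 scale. These pairs come from 3 embryos, and the share of all genes lower in 6 of 6 is not given. Of all 19174 genes tested, 8612 had an average B12 difference above 0, and the median was -0.013. Adjusted p-values in edgeR lay between 0.547 and 0.987, which does not show that the levels were equal.

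The effect of B12 was not shown to depend on induction. For the interaction, 0 of 6 passed in edgeR, 0 of 6 had an unadjusted p under 0.05, and DESeq2 called 0, where 0.0% of all genes passed. In 10 of the 11 macrophage markers a rise with B12 passed the same test of the average. The low keratins Krt17 and Krt6a, at 57 and 30 counts in OSKM+B12 of clone 1 against 6 and 4 in OSKM of clone 1, were not tested, and the other 2 clones gave 5 or fewer counts of each with B12.

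**Figure D4:**
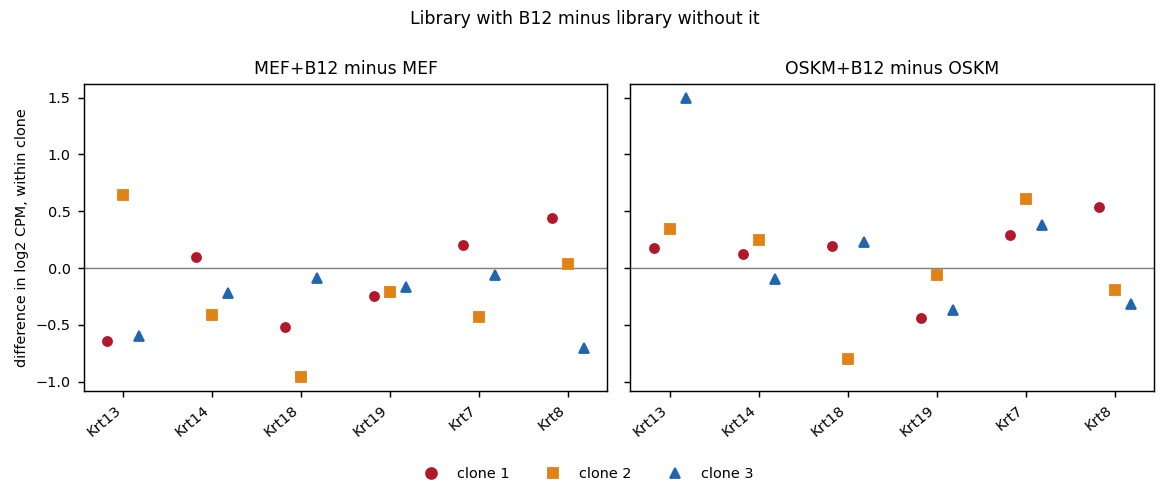
Difference in log2 CPM between the library with B12 and the library without it of the same clone (vertical axis) for the 6 keratins tested, uninduced (left) and induced (right), 1 point per clone. Krt19 lies below 0 in 6 of 6 pairs, points of the other genes lie on both sides of 0 over the 2 panels, and the highest point, Krt13 of induced clone 3, rests on 6 counts against 1.

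The rest of the family gives the setting. Of the 53 protein-coding keratin genes in the table, 26 had at most 3 counts in each library, 8 of them 0 throughout, and 12 were tested. Of the 26 other keratins listed, which include the annotated pseudogene Krt74 with 0 counts, 5 were tested, and 1 of these, Krt16, rose with B12 induction (5.34 ± 0.67, log2, SE, adjusted p 0.0155 in edgeR). Krt16, the type I partner of Krt6a, was counted 0 to 3 times in uninduced libraries, 69, 43 and 2 times in OSKM and 59, 37 and 2 times in OSKM+B12. It too passed the filter through its induced libraries, and 51.9% of its words are shared with other genes. Per clone its difference with B12 was 4.86, 3.26 and 1.00 (log2), so the fitted value lies above each.

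Krt20, an intestinal and urothelial type I keratin that shares no words with other genes, was at 0.710 to 1.25 CPM uninduced. It was at 6.53, 6.54 and 1.42 CPM in OSKM and at 5.09, 7.08 and 1.14 CPM in OSKM+B12, the clone pattern of Krt14. Its induction with B12 (1.81 ± 0.47, log2, SE) did not pass (adjusted p 0.176 in edgeR), and its difference between clones did (0.00842). Krt1, a type II keratin of differentiated epidermis, had 0 to 3 counts uninduced and 7 to 16 in induced clones 1 and 2. Krt10 and Krt80 had fitted differences with B12 of 0.07 ± 0.11 and 0.24 ± 0.19 (adjusted p 0.84 and 0.608). None of the 16 hair keratins in the table reached the filter. The median difference was 1.81 for the 5 other keratins tested and 1.84 for the 6 described here, beside 0.0017 for all genes tested, and these medians rest on genes that passed the filter.

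**Figure D5:**
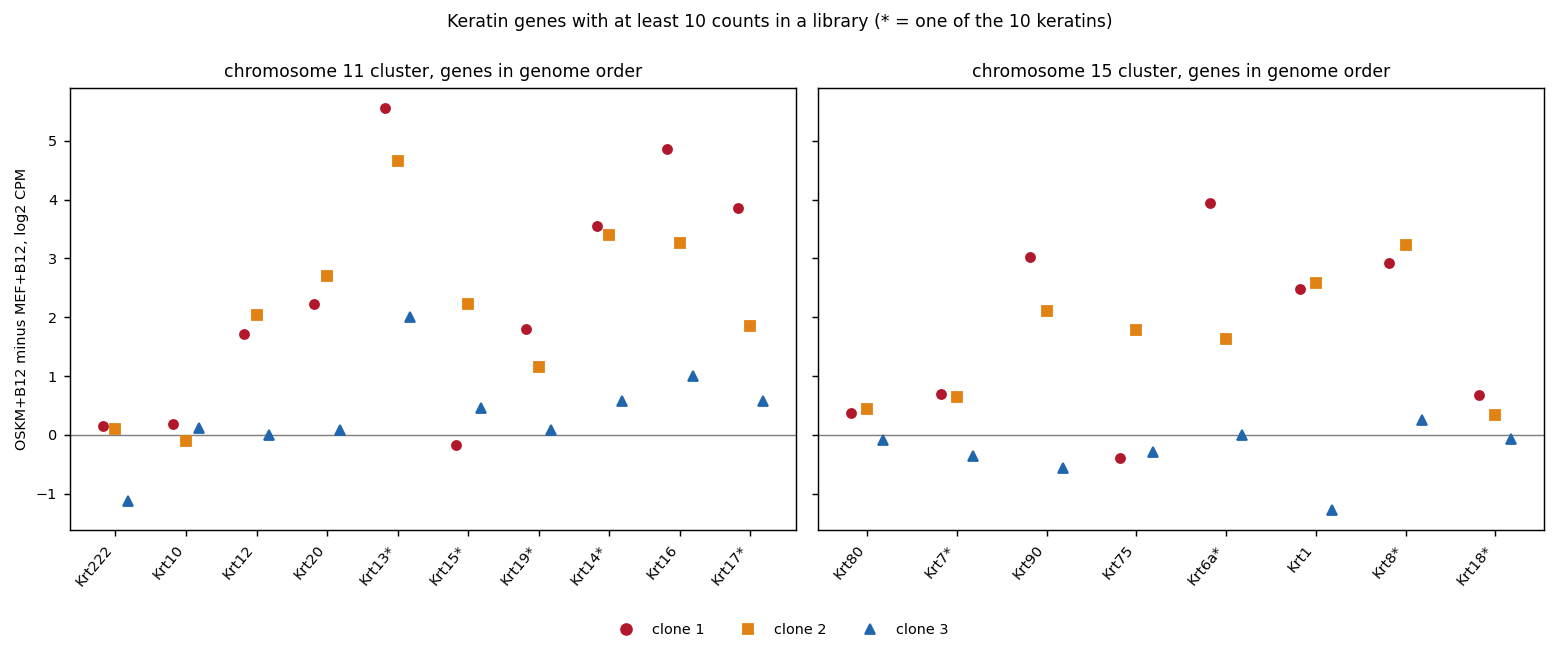
OSKM+B12 minus MEF+B12 in log2 CPM (vertical axis) for the 18 keratin genes with at least 10 counts in 1 or more libraries, in genome order within the chromosome 11 and chromosome 15 clusters, 1 point per clone and stars for the 10 keratins described. Some genes with large differences in clones 1 and 2 stand beside genes near 0, such as Krt8 (2.92 and 3.22) beside Krt18 (0.68 and 0.33). Others, such as Krt14, Krt16 and Krt17, stand beside each other.

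Along chromosome 11, Krt14, Krt16 and Krt17 lie next to each other in the order of keratin genes. With B12 they differed by 3.56 and 3.40, 4.86 and 3.26, and 3.86 and 1.85 in clones 1 and 2 (log2). Krt17 had 5 counts in OSKM+B12 of clone 2, and part of the sequence of all 3 is shared with other genes. Other neighbours of keratins with large differences had too few counts to show whether they shared the difference. Krt15, between Krt13 and Krt19, had 0 to 14 counts, and Krt9, between Krt19 and Krt14, had at most 2. Krt42, 1.85 kb from Krt17, had at most 1. At the other end of chromosome 15, Krt8 and Krt18 differed by 2.92 and 0.68 in clone 1 and by 3.22 and 0.33 in clone 2 (log2, OSKM+B12 minus MEF+B12).

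Genes that anchor keratin filaments were examined next. Of 16 genes for desmosomal plaque and linker proteins, 14 were tested and 1 rose with B12 induction, Pkp1, which encodes the desmosomal protein plakophilin 1 (8.10 ± 0.55, log2, SE, adjusted p 0.00017 in edgeR). Pkp1 had 0 to 2 counts uninduced, 153, 195 and 3 in OSKM, and with B12 143, 259 and 1 after induction, and it passed the filter through its induced libraries. Per clone its difference with B12 was 5.56, 7.09 and 0.58 (log2), so the fitted value lies above each. With so few uninduced counts, the fitted size and its SE are uncertain. Evpl, for envoplakin, and Perp passed the test of a difference between clones (adjusted p 0.0037 and 0.0118). Evpl was at 0.285 to 0.615 CPM uninduced and at 2.25, 2.03 and 0.599 CPM in OSKM+B12. Plec, Dst and Jup, the most abundant of the list, had fitted differences of 0.07, 0.12 and 0.26. The median of the 14 was 0.43.

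Of 15 epithelial transcription factors, 8 were tested and 0 passed in edgeR, while 4 of 8 had an unadjusted p under 0.05. Trp63, which encodes the p63 factor of basal epithelium, came nearest, with 1.15 ± 0.18 (log2, SE) and an adjusted p of 0.055, and was higher in 3 of 3 clones (1.25, 1.43 and 0.58). The most abundant, Klf5, was at 9.52 to 16.3 CPM with a difference of -0.33 ± 0.12 (adjusted p 0.238). The median of the 8 was 0.28. Of 14 other intermediate filament genes, 12 were tested and 0 passed in edgeR. At an unadjusted p under 0.05 there were 2, where 2854 of all 19174 genes were called. The median was -0.08. Vim itself was at 1770 to 2115 CPM in the 12 libraries, with a difference of -0.05 ± 0.06.

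Among all tested genes with a full symbol, those most like each keratin over the 12 libraries were found by the mean absolute difference of log2 CPM after centring each gene on its own mean. Nearest to Krt14 were Efhd1 (0.30), Krt8 (0.32), Krt16 (0.46), Tmem184a (0.46) and Aox3 (0.47). Nearest to Krt8 were Efhd1 (0.29), Tlx2 (0.31), Krt14 (0.32), Cacna2d2 (0.33) and Ccdc88c (0.35), so that Krt14 and Krt8 were among the 5 nearest of each other.

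Nearest to Krt13 were Nccrp1 (0.41), Hbb-y (0.41), Krt16 (0.45), Krtdap (0.45) and Mal (0.46), of which Krtdap is named for keratinocyte differentiation and Hbb-y encodes an embryonic haemoglobin chain. Efhd1 was at 0.191 to 0.491 CPM in uninduced libraries, at 2.41 to 3.43 CPM in induced clones 1 and 2 and at 0.323 to 0.385 CPM in induced clone 3. The genes nearest to Krt19 were Akr1c14 (0.16), Frmd3 (0.18), Anxa8 (0.19), Gsta4 (0.19) and Afap1l2 (0.20), which like Krt19 were present before induction, with Anxa8 at 16.7 to 22.3 CPM uninduced and 52.6 to 61.1 CPM in induced clones 1 and 2. These genes share the same 12 libraries, and at low counts log2 values are drawn together by the added prior count of 2.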

How the data were processed

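RNA was sequenced from 12 MEF cultures of 3 embryos (3 libraries in each of 4 groups), grouped by the condition and treatment in the labels. The authors made poly(A)-selected, strand-specific libraries, aligned read pairs with STAR (version 2.5.2 per the submitters' processing notes) to mm10 (GRCm38), counted pairs per gene with featureCounts in stranded mode and added the runs of each library. The deposited values are raw counts for 55573 genes, with no row that names no gene. How pairs that match several genes were treated is not given in the sources used here.

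Symbols, coordinates and exon lengths were taken from GENCODE for GRCm38, in which 93 identifiers had no match. Counts were scaled by TMM (factors 0.934 to 1.06) and written as CPM, and log2 values were computed with a prior count of 2. edgeR 4.0.16 (R 4.3.3) was run on 19174 genes kept by its expression filter, with group and clone as terms over all 12 libraries, quasi-likelihood tests, Benjamini-Hochberg adjustment and a threshold of 0.05. Clone was used as a block since cells of 1 embryo are present in every group, and the libraries of 1 clone deviated together from their group means (correlations of 0.27 to 0.687 in 18 pairs, against at most 0.17 for 36 pairs of different clones). The p-values of the group comparisons measure how far the 3 embryos differed in their responses, with both B12 arms of an embryo in the residual. Those of the clone difference measure the spread between libraries with and without B12 of the same clone and state, since no clone was repeated within a group. No 2 libraries were identical.

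The keratins and all gene lists were chosen with earlier results of these data known. Besides the 10 keratins, the text names the genes of the lists that passed a test or were most abundant, and the 5 genes most like each keratin whose log2 CPM had an SD above 0.5 over the 12 libraries. Krt12, Krt73 and Krt90 are not described further. Alternatives were DESeq2 1.42.0, its size factors, no filter, no clone block, and fits without a clone or without the OSKM library of clone 1. A fit of only the 6 libraries with B12 and the length of the longest protein-coding transcript were added after the values were seen. Promoter sequences came from RefSeq (GRCm38.p6).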

Additional observations from a re-analysis of the deposited data

Results flagged for a closer look

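The response to induction differed between the 3 embryos for Krt19 (adjusted p 0.00197 in edgeR) and Krt8 (0.0337), by the test of the clone by state term, and the value of Krt14 (0.00446) is given as a description. For Krt14 clones 1, 2 and 3 differed between induced and uninduced cells with B12 by 3.56, 3.40 and 0.57 log2 units, for Krt8 it was 2.92, 3.22 and 0.26, and for Krt19 it was 1.79, 1.16 and 0.08. In each case clone 3 had the smallest difference. The difference of Krt14 was known before, and the test includes the libraries on which Krt14 was chosen. Its p-values measure spread within embryos, with the B12 arms of a clone as replicates. Groups of 3 libraries were too small for a test of single outlying libraries.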

How the results depend on the processing

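In the comparison of induction with B12, 1 of 6 keratins passed, 2 with DESeq2 (Krt13 and Krt14), 5 of 10 with no filter on low counts (with Krt8, Krt17 and Krt19), and 0 to 4 when a clone was left out. With no filter the adjusted p fell at nearly the same fitted difference (Krt14 from 0.0716 to 3.06e-05, Krt8 from 0.172 to 0.00112). Of all genes tested, 0.104% rose in the main fit, 0.991% with DESeq2 and 2.46% without clone 3. The share in the other fits is not given, so counts from them cannot be read as particular to keratins or related genes. In only the 6 libraries with B12, added after the values were seen, 0 of 5 keratins and 0 related genes passed, and Krt13 was not tested. With no replicate block for the clone, the pairing the design gives, the count was 0. The count for the difference between clones was 3 with Krt14 included, and 0 to 3 when a clone was left out, 0 being the count without clone 3. The 0 calls for B12 stayed at 0 in all 8 alternatives run for it, none of which had a clone by state term. For related genes, 2 passed induction with B12, 6 with DESeq2, 11 with no filter, 0 without the block and 0 to 14 with a clone left out, and 3 passed the difference between clones, 9 with no filter and 0 to 5 with a clone left out. The average B12 difference, which passed in no fit, changed sign for Krt8 with DESeq2 (-0.10), for Krt14 without the block (0.015), and with libraries left out for Krt8 (-0.31 to 0.25), Krt13 (-1.48 to 0.34) and Krt14 (-0.071 to 0.13). The mean Krt14 level in OSKM+B12 was 4.53 CPM, and 4.72 with library totals. The cause of these changes was not tested. Depth limits Krt5, Krt6a, Krt15 and Krt17, and with 3 embryos 1 clone decides most calls.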
